A study of Danio rerio with 24 samples.

Results

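Collagen genes were taken as every gene whose symbol reads col, a type number, the letter a and a chain number. This rule found 55 of the 25432 genes in the tables, under 53 symbols, since col6a3 and col19a1 each stand under 2 Ensembl identifiers. All 55 reached a TPM (a share of the transcripts of a library, scaled by gene length) of 1 or more in at least 3 of the 24 libraries and were kept, and 44 reached it in every library. They cover 22 collagen types and were sorted by type number into 9 fibrillar genes (types I, V and XXIV), 12 cartilage genes (II, IX, X, XI and XXVII), 9 basement membrane genes (IV, XV and XVIII) and 25 others.

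RNA of whole embryos, collected 4 days after fertilization, was sequenced in 4 transgenic zebrafish lines with 3 libraries a group. In each line the 3TG group had the CRISPR-Q components plus a guide RNA, while the 2TG siblings had those components and lacked the guide. In the smn1 line and in the tardbp line, whose guide array covers tardbp and tardbpl, the guides direct RNA knockdown (CRISPR-QKD). In the lin28a and sox9b lines they direct transcriptional activation (CRISPR-Qa). All embryos, 2TG included, were heated for 1 h at 2 and at 3 days to switch on the driver QFvpr behind an hsp70l promoter, so that no group is unheated. The number of embryos in a library and their strain are not given in the sources used here, nor whether the 3 libraries of a group come from separate clutches, so p-values measure the spread between these libraries only.

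Collagens are extracellular proteins whose chains wind around each other, and each type is built from its own set of chains. Fibrillar types give skin, bone and tendon their tensile strength, type II with types IX and XI forms the fibrils of cartilage and the notochord sheath, and type IV forms the sheet-like network of basement membranes. In mice, the transcription factor SOX9 activates Col2a1, Col9a1 and Col11a2 through enhancers and is required for cartilage. Zebrafish carry duplicates of many of these genes, marked a and b, as well as of SOX9 itself.

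Read depth is unknown, since the tables hold TPM. In 23 libraries the listed TPM came to 98.4 to 99.0 percent of the nominal TPM sum. In tardbp 3TG replicate 3 it came to 77.8 percent, and 3 abundant genes (zgc:158463, FO704772.3 and AL935186.10) held 34.3 percent of that sum there, against 0.109 to 1.29 percent in the other libraries. That library stands apart. Within the tardbp line, uncentred medians, fold changes (except that of col10a1a) and counts at an unadjusted p are given with and without it. Most other values include it, among them the centred counts of collagens, overlaps and the sizes of differences between lines. The smn1 table mixes 2 number formats, with 6 decimals in 3TG replicate 1 and 2TG replicates 1 and 2, and 6 significant digits in the others. Among genes that mark tissues of the embryo, the summed level of 18 skin keratinocyte genes ran from 6092 to 15291 TPM, of 25 non-collagen chondrocyte genes from 418 to 1454 TPM, and of 10 notochord genes from 131 to 352 TPM. Markers of these 3 tissues were thus detected in every library.

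Collagen transcripts made up 0.256 to 0.687 percent of the listed TPM of a library, with a median of 0.433 percent. Transcript levels, set side by side per length, spanned over 3 orders of magnitude between genes. The type I genes led: col1a1a averaged 751 TPM over the 24 libraries, col1a1b 423 TPM and col1a2 351 TPM. The type II gene col2a1a came second of all 55, with 456 TPM. These 4 genes together with col9a2 held 50.8 percent of the collagen TPM. In all, 13 genes averaged 100 TPM or more, 23 between 10 and 100 TPM, and 19 below 10 TPM.

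Among the other fibrillar genes, the type V genes col5a2a and col5a1, whose chains sit inside type I fibrils, averaged 107 TPM and 105 TPM. The type V gene col5a3b averaged 58.6 TPM, while col5a2b and col5a3a averaged 3.33 TPM and 1.00 TPM. The type XXIV gene col24a1 averaged 17.8 TPM. Fibrillar transcripts were therefore mostly those of type I and of 3 type V genes.

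The cartilage class was even in its upper part. After col2a1a came col9a2 at 201 TPM, col2a1b at 165 TPM, col9a3 at 157 TPM, col11a1a at 149 TPM and col9a1a at 115 TPM. Type IX chains coat the surface of type II fibrils and type XI chains lie within them. The type X gene col10a1a, known from hypertrophic cartilage and in zebrafish also from bone-forming cells, averaged 100.3 TPM and was the most variable of the 13 genes averaging 100 TPM or more, with a coefficient of variation (CV) of 47.7 percent and a range of 35.05 to 182 TPM. Its duplicate col10a1b was the lowest of the 55, at 0.546 TPM, and the type XXVII gene col27a1b averaged 2.42 TPM.

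Basement membrane genes were lower. The type IV genes col4a5 and col4a6 averaged 95.4 TPM and 42.4 TPM, above col4a1 and col4a2 at 24.3 TPM and 20.5 TPM, whose products form the network found under most epithelia and vessels. The pair col4a3 and col4a4, known in mammals from the kidney filter, averaged 2.06 TPM and 1.23 TPM. The type XVIII gene col18a1a, source of the endostatin fragment, averaged 68.1 TPM, and col15a1b averaged 11.8 TPM.

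Of the others, col17a1a led at 103 TPM. Type XVII collagen is a transmembrane protein that anchors skin epithelium to its basement membrane. The fibril-associated genes col14a1b and col12a1a averaged 80.2 TPM and 71.5 TPM, and the type VI gene col6a1, part of the microfibrils around muscle and other cells, 63.2 TPM. The type VII genes col7a1 and col7a1l, which encode anchoring fibrils of skin, averaged 7.80 TPM and 8.64 TPM. The type XXII gene col22a1, which marks the junction of muscle and tendon, averaged 8.94 TPM.

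**Figure D1:**
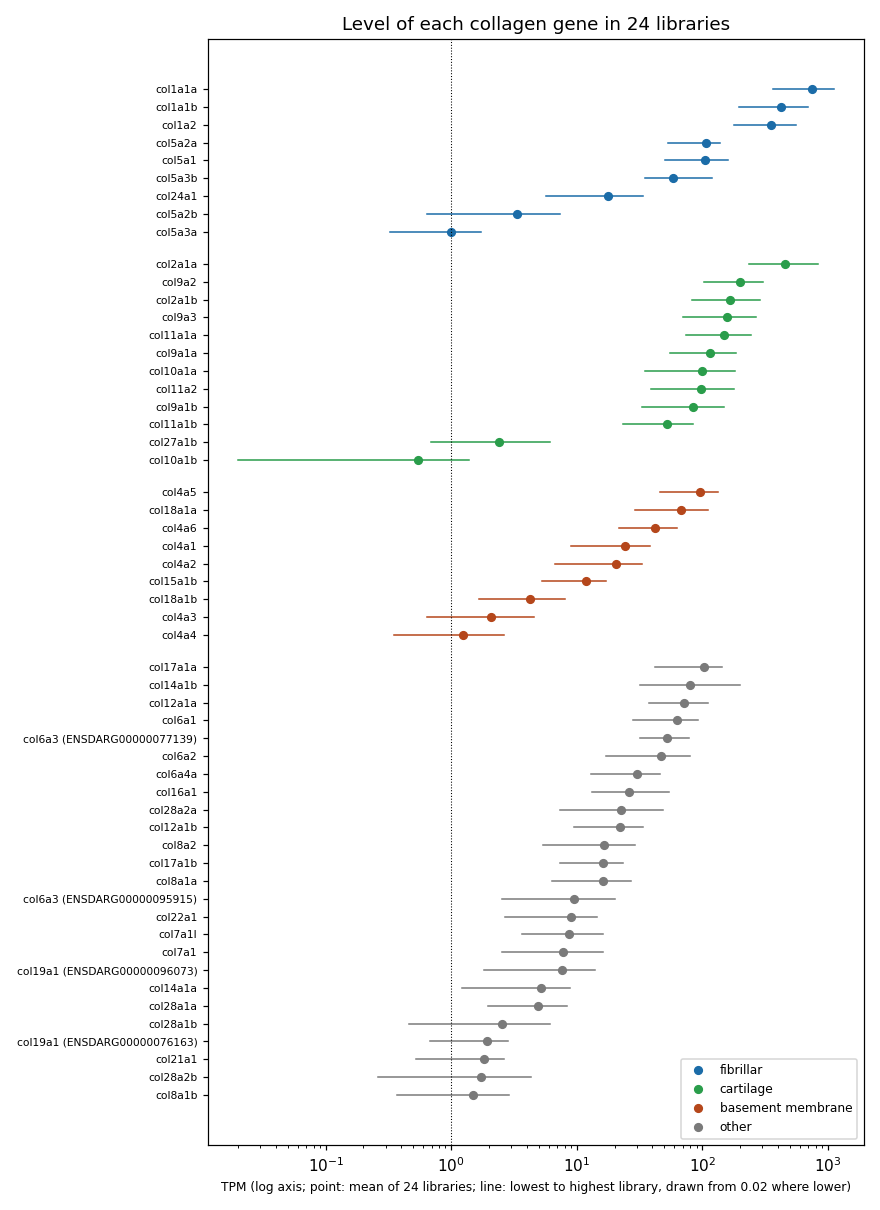
Mean TPM of each of the 55 collagen genes over 24 libraries (points, log axis), with lines from the lowest to the highest library, grouped by class and ordered by mean within it; the dotted line marks 1 TPM. The type I genes col1a1a, col1a1b and col1a2 and the type II gene col2a1a stand highest, and col10a1b lowest at a mean of 0.546 TPM.

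Of 14 pairs of duplicates, 12 had the same gene higher in 24 of 24 libraries. The imbalance ran from mild, with col1a1a at 1.78 times col1a1b by the ratio of their means, to steep, with col5a3b at 58.5 times col5a3a and col10a1a at 184 times col10a1b. In the 2 remaining pairs the order was less fixed: col9a1a exceeded col9a1b in 22 libraries and col28a1a exceeded col28a1b in 20. Reads from near-identical copies can be split between them by the estimation, so the balance within a pair is less certain than the sum.

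Many chain partners had steadier proportions than levels. Over the 24 libraries the level of col4a5 had a CV of 25.6 percent and that of col4a6 25.8 percent, while the ratio col4a5:col4a6 ranged from 2.01 to 2.51 with a CV of 5.85 percent. The ratio col1a1a:col1a1b had a CV of 6.74 percent and col1a1a:col1a2 9.16 percent, where the levels of these 3 genes had CVs of 26.8 to 28.4 percent. The ratios col2a1a:col2a1b, col11a1a:col11a1b and col9a2:col9a3 had CVs of 10.1, 10.1 and 11.1 percent. In all, 16 of 28 ratios between chain partners or duplicates varied less than the level of either gene. Genes of 1 library share its scale, which a ratio removes, and this holds for any pair of genes in it.

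Other pairs did not keep proportion. The ratio col28a2a:col28a2b had a CV of 141 percent, col28a1a:col28a1b 109 percent and col4a3:col4a4 73.3 percent, each with a member averaging under 3 TPM. The ratio of col10a1a to col2a1a, both sorted into the cartilage class by type number, had a CV of 50.3 percent. By gene order in the RefSeq annotation GRCz12tu, where all 53 symbols were found, the pairs col4a1 and col4a2, col4a3 and col4a4, and col4a5 and col4a6 are neighbours in the genome, as are col9a2 and col16a1.

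**Figure D2:**
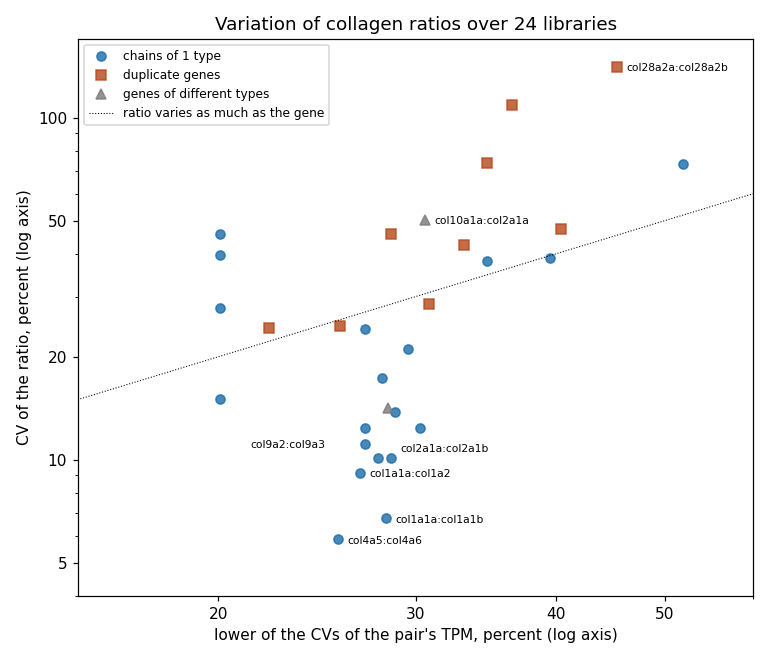
Each point is a pair of collagen genes: the CV of its ratio over 24 libraries (vertical) against the lower of the CVs of its genes' TPM (horizontal), both in percent on log axes; the dotted line marks equality. The labelled ratios of types I, II, IV and IX lie well below the line, at CVs of 5.85 to 11.1 percent, and col28a2a:col28a2b lies far above it, at 141 percent.

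The composition of the collagen pool varied less than its size. Fibrillar genes held 36.4 to 46.9 percent of the collagen TPM of a library (median 42.0 percent), cartilage genes 32.8 to 40.6 percent, basement membrane genes 5.27 to 7.42 percent and the others 12.004 to 18.6 percent. The CV of the fibrillar share was 5.57 percent and of the cartilage share 6.29 percent, against 24.8 percent for the collagen share of all TPM. In 3 of the 4 lines a class share had groups that did not overlap: the fibrillar share was higher in sox9b 3TG and lower in smn1 3TG, and the cartilage share was lower in tardbp 3TG, as given with each line. Grouping types II, XI and XXVII with the other fibril-forming types by their structure moves their share from cartilage to fibrillar and leaves the gene values as they are. With it, the groups of the smn1 line overlapped for the fibrillar share and those of the tardbp line for the cartilage share. The fibrillar share in the sox9b line stayed without overlap. No background was computed for class shares. An exact permutation test of 3 against 3 cannot go below 0.1.

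**Figure D3:**
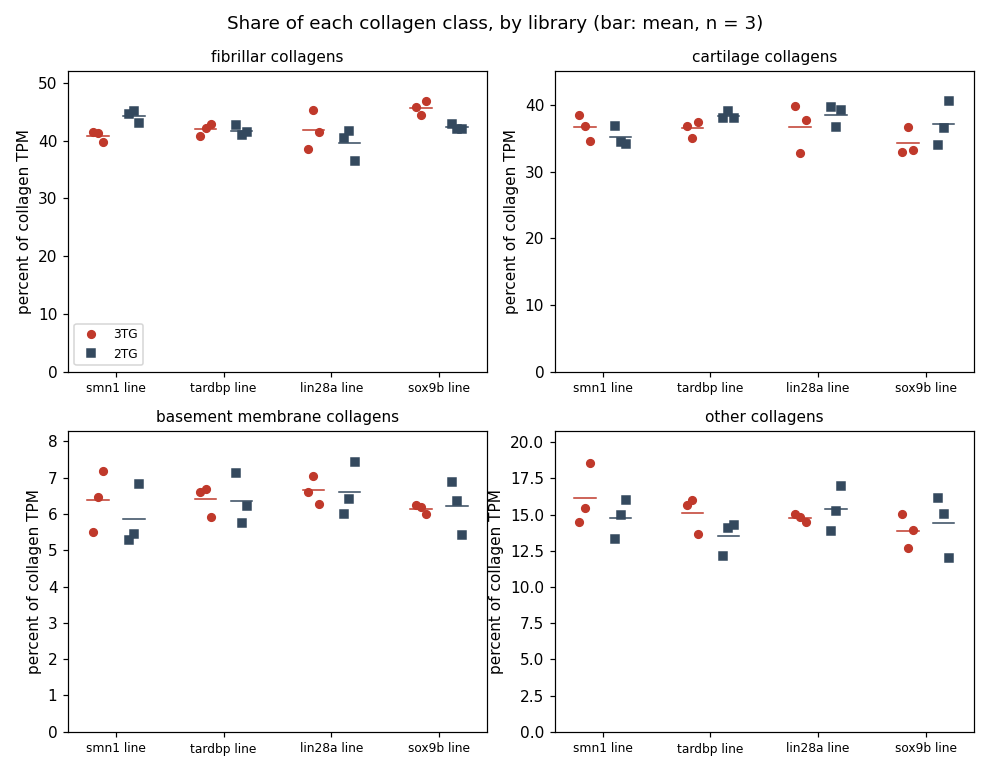
Percent of the collagen TPM of each library held by the fibrillar, cartilage, basement membrane and other genes (vertical axes, from 0), for 3TG (circles) and 2TG (squares) of each line, with bars at the mean of 3 libraries. In the fibrillar panel the 3 sox9b 3TG libraries, at 44.4 to 46.9 percent, lie above the 3 sox9b 2TG libraries, at 42.0 to 42.9 percent.

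No collagen gene passed the test in any line at an adjusted p of 0.05 (limma on log2(TPM + 1), two-sided, Benjamini-Hochberg adjustment over all genes tested in the line). The test covered 53 collagen genes in the smn1, lin28a and sox9b lines and 52 in the tardbp line, those with 1 TPM or more in at least 3 of the 6 libraries. All log2 fold changes below are 3TG minus 2TG on this scale, which understates changes of genes near 1 TPM. The same test called 0 percent of all genes in the smn1, lin28a and sox9b lines and 0.0103 percent, 2 of 19336, in the tardbp line. Without adjustment, p was below 0.05 for 1154 higher and 1267 lower genes in the smn1 line, 137 and 212 in the lin28a line, and 162 and 77 in the sox9b line. What follows is therefore a description of directions, levels and overlaps.

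**Figure D4:**
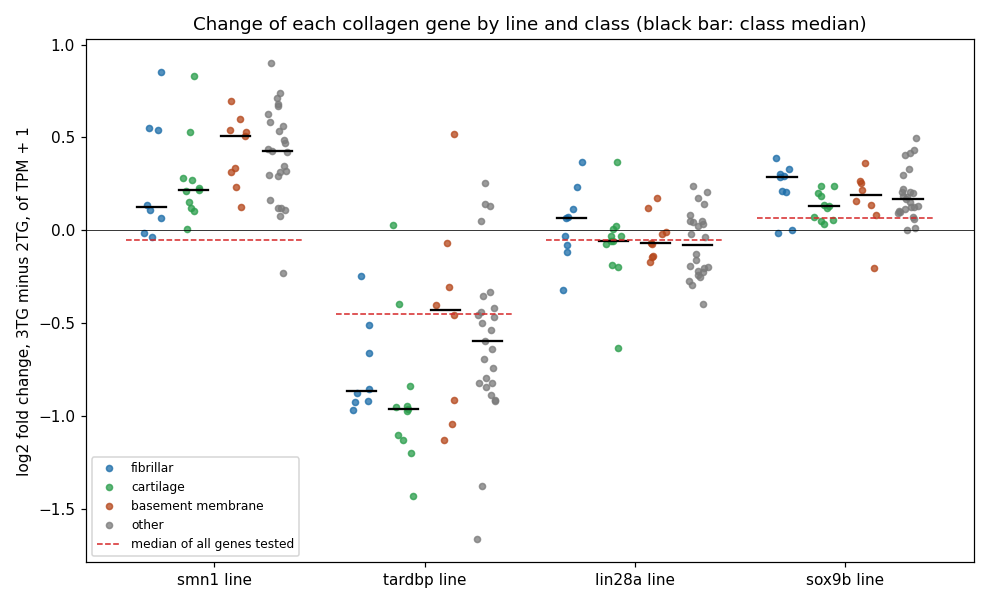
Each point is the log2 fold change (3TG minus 2TG, of TPM + 1) of a collagen gene, by line and class; black bars are class medians and dashed red lines the median of all genes tested in the line. In the tardbp line the fibrillar and cartilage medians, -0.86 and -0.96, lie below the all-gene median of -0.45, and in the sox9b line every class median lies between 0.13 and 0.29.

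In the sox9b line, the type I genes col1a1b and col1a1a had the smallest p-values among the collagens. The target sox9b itself stood at 39.7, 34.8 and 31.5 TPM in sox9b 3TG, against 17.1, 18.4 and 18.2 TPM in 2TG, and the groups did not overlap. Its log2 fold change was 0.94 (SE 0.13), the third smallest p of the line, with an adjusted p of 0.733 by limma. Its duplicate sox9a averaged 59.4 ± 3.26 TPM in 3TG and 54.3 ± 14.2 TPM in 2TG (SD, n = 3 each), with overlapping groups.

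All 11 cartilage collagens tested had positive fold changes, from 0.04 to 0.24, where 66.9 percent of all genes had positive ones. None of the 11 had an unadjusted p below 0.05. After median centring 7 of them were positive, against 45.8 percent of all genes, and their median was 0.05. Transcripts of col2a1a, the chief cartilage collagen, stood at 379, 558 and 472 TPM in sox9b 3TG, against 365, 414 and 516 TPM in 2TG. The highest 2TG library exceeded 2 of the 3 sox9b 3TG libraries, and the log2 fold change was 0.12 (SE 0.17). Its duplicate col2a1b stood at 158, 215 and 205 TPM in sox9b 3TG, against 161, 154 and 189.7 TPM in 2TG, a log2 fold change of 0.19 (SE 0.14). For both type II genes the groups overlapped.

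Fold changes of the type IX genes were small. Levels of col9a2 were 186, 258 and 231 TPM in sox9b 3TG, against 185, 196 and 261 TPM in 2TG, so that the highest value belonged to a 2TG library, and the log2 fold change was 0.07 (SE 0.17). The log2 fold changes of col9a3, col9a1a and col9a1b were 0.04, 0.05 and 0.14. Of the type XI genes, col11a1a stood at 134, 201 and 184 TPM in sox9b 3TG, against 135, 142 and 170.4 TPM in 2TG, and col11a1b, the cartilage gene of smallest p, at 53.8, 67.6 and 68.6 TPM in sox9b 3TG, against 52.8, 57.5 and 49.8 TPM in 2TG. Their log2 fold changes were 0.20 (SE 0.17) and 0.24 (SE 0.13), with unadjusted p of 0.265 and 0.114 by limma, and that of col11a2 was 0.13. The type X gene col10a1a had overlapping groups, at 52.2, 96.5 and 71.9 TPM in sox9b 3TG, against 72.2, 51.5 and 86.8 TPM in 2TG, and a log2 fold change of 0.05. The type XXVII gene col27a1b had a log2 fold change of 0.24 (SE 0.38), and col10a1b, at a mean below 1 TPM, was not tested.

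Type I transcripts were higher in sox9b 3TG by a small margin. For col1a1a the values were 789, 1094 and 1056 TPM in sox9b 3TG, against 716, 670.1 and 846 TPM in 2TG. For col1a1b they were 477, 567 and 606 TPM in sox9b 3TG, against 413, 415 and 481 TPM in 2TG, and for col1a2 345, 468 and 470.2 TPM in sox9b 3TG, against 326, 312 and 396 TPM in 2TG. In each of the 3 genes the highest 2TG library exceeded the lowest 3TG library. The log2 fold changes were 0.39 (SE 0.15) for col1a1a, 0.33 (SE 0.12) for col1a1b and 0.30 (SE 0.15) for col1a2, with unadjusted p of 0.0303, 0.0237 and 0.0794 and an adjusted p of 1.000 each (limma). Thus 2 collagens, col1a1a and col1a1b, were higher at an unadjusted p below 0.05, against 0.826 percent of all genes, and none was higher or lower after median centring, against 0.591 and 0.759 percent. None was lower without centring, against 0.392 percent.

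Within the collagen total of this line, the summed fibrillar class, in which type I genes weigh most, stood higher in 3TG. Of its 9 genes, 8 had positive fold changes and 1 a negative one, and col24a1 averaged 16.5 TPM in 3TG and 16.3 TPM in 2TG. The fibrillar share of the collagen TPM was 45.8, 44.4 and 46.9 percent in 3TG, against 42.9, 42.0 and 42.0 percent in 2TG, without overlap. The cartilage share was 32.9, 36.7 and 33.2 percent in 3TG, against 34.0, 36.6 and 40.6 percent in 2TG, with overlap. The ratio col1a1a:col1a2 was 2.29, 2.34 and 2.25 in 3TG, against 2.196, 2.15 and 2.13 in 2TG, and col5a3b:col5a3a was 61.1, 53.9 and 63.9 in 3TG, against 48.8, 40.8 and 53.3 in 2TG, both higher in 3TG without overlap. The ratio col4a5:col4a6 was 2.25, 2.23 and 2.31 in 3TG, against 2.33, 2.43 and 2.35 in 2TG, lower in 3TG without overlap. These were 3 of the 28 ratios, and the ratio of col2a1a to col1a1a overlapped, at 0.480, 0.510 and 0.446 in 3TG, against 0.509, 0.618 and 0.610 in 2TG. How often the ratios of other gene pairs separate was not computed in any line, so these counts have no background.

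Among the basement membrane and other collagens of the sox9b line, col18a1a stood at 76.6, 95.6 and 90.2 TPM in sox9b 3TG, against 75.6, 67.2 and 75.9 TPM in 2TG, with a log2 fold change of 0.26 (SE 0.12). It was the 1 collagen of 53 that was higher without overlap, where 3.6 percent of all genes were. No collagen was lower without overlap, where 1.15 percent of all genes were. The type IV genes col4a1, col4a5 and col4a6 had log2 fold changes of 0.36, 0.16 and 0.22. Among the others, log2 fold changes were 0.40 (SE 0.20) for col22a1, 0.43 (SE 0.27) for col8a1a, and 0.12, 0.21 and 0.13 for col17a1a, col14a1b and col12a1a.

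Over all classes 50 of 53 collagens had positive fold changes in the sox9b line, where 66.9 percent of all genes did. The median was 0.18, against 0.07 for all genes. After each library was centred on its median, 42 were positive, against 45.8 percent of all genes, and the median was 0.10. The class medians were 0.29 for fibrillar, 0.19 for basement membrane, 0.17 for other and 0.13 for cartilage genes. Replicate 2 of the 3TG group was the highest of the 6 libraries for 27 collagens and replicate 3 for 16, while 3TG replicate 1 was the lowest for 9. Without 3TG replicate 1, 12 collagens were higher at an unadjusted p below 0.05, against 1 percent of all genes in that fit. Without 3TG replicate 2 or 3 none was, against 0.474 and 0.489 percent. In bulk RNA, a change in the number of cells of a type and a change in RNA per cell cannot be told apart.

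**Figure D5:**
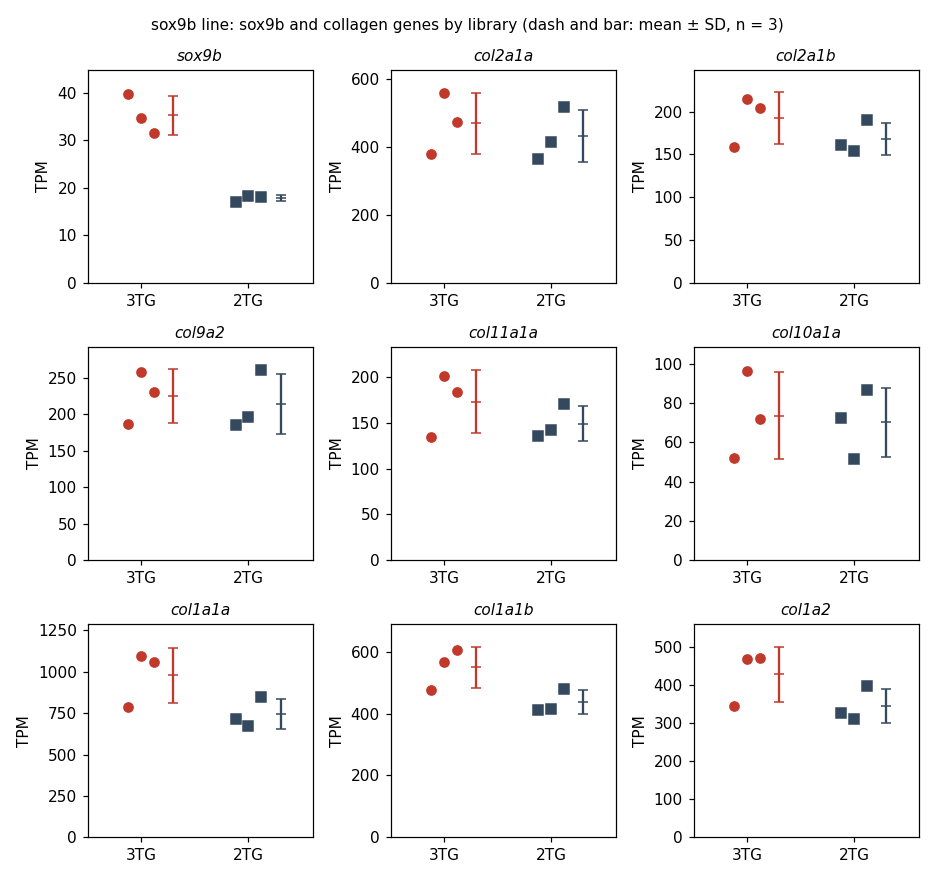
TPM of sox9b and of 8 collagen genes in the 3 libraries of sox9b 3TG (circles, left) and 2TG (squares, right), with mean ± SD (n = 3) beside them; vertical axes start at 0. The sox9b values do not overlap between groups, and those of each collagen shown do.

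Genes that act on or with cartilage collagens were set beside this. The chondrocyte list without collagens includes sox9b, the target of this line, in its counts and sum. Of its 24 tested genes, 20 had positive fold changes, where 66.9 percent of all genes did. The median of the 24 was 0.05, against 0.07 for all genes, and none passed the test. The 2 of smallest p were sox9b and matn3b, a cartilage matrix protein, with a log2 fold change of 0.31. The summed level of the 25 genes found was 974, 1426 and 1178 TPM in 3TG, against 1001, 1073 and 1353 TPM in 2TG. Only mgp of these was at 0 in any library of the series. For 14 osteoblast genes the sum was 1117, 1343 and 1151 TPM in 3TG, against 1240.3, 1089 and 1237 TPM in 2TG, with overlapping groups and bglap, bglapl and runx2a at 0 in some library of the series. Their part in the type I values was not tested.

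In the tardbp line the collagens lay below their 2TG level together with most genes. Both targets were lower without overlap, as were 29.1 percent of all genes: tardbp stood at 74.6, 80.1 and 48.3 TPM in tardbp 3TG, against 146, 109 and 118 TPM in 2TG, and tardbpl at 117, 121 and 76.7 TPM in tardbp 3TG, against 216, 197 and 180.2 TPM in 2TG. Their log2 fold changes were -0.89 (SE 0.40) and -0.93 (SE 0.40), with adjusted p of 0.352 and 0.351 by limma. Without 3TG replicate 3 the fold changes were -0.67 (SE 0.20) and -0.72 (SE 0.18). Rescaled without the 3 abundant genes, tardbp was 75.7, 81.2 and 111 in 3TG, against 148, 110.1 and 120.2 in 2TG, so that its groups overlapped, while tardbpl was 119, 123 and 176 in 3TG, against 219, 199.7 and 184 in 2TG, without overlap. The median change of all 19336 genes tested was -0.45, so the collagens are also given relative to it.

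Of 52 collagens tested, 46 had negative fold changes, and 17 percent of all genes had positive ones. The collagen median was -0.77, and -0.32 after subtracting the median of all genes. An unadjusted p below 0.05 was reached by 21 collagens, all lower, against 12.9 percent of all genes lower and 0.89 percent higher. Without overlap 23 were lower and none higher, against 29.1 and 0.176 percent. After median centring 6 were lower and 1 higher at that p, against 4.21 and 6.04 percent of all genes, with a median of -0.33. Rescaling each library without the 3 abundant genes gave 4 lower and 2 higher without overlap, against 15.5 and 3.23 percent.

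As a class, cartilage collagens were lowest relative to all genes, and 10 of the 11 tested had negative fold changes. Their class median was -0.51 relative to the all-gene median, that of the fibrillar genes -0.41, of the others -0.14 and of the basement membrane genes 0.02. Levels of col2a1a were 315, 245 and 234 TPM in tardbp 3TG, against 437, 626 and 649 TPM in 2TG, a log2 fold change of -1.10 (SE 0.41), with 3TG replicate 3 lowest. Rescaled without the 3 abundant genes they were 319, 248 and 537 in 3TG, against 444, 635 and 661 in 2TG, and 3TG replicate 3 then lay within the 2TG range. Levels of col9a2 were 143, 104 and 105 TPM in tardbp 3TG, against 177, 233 and 276 TPM in 2TG, and those of col9a1b, the cartilage gene of smallest p, 57.0, 32.9 and 42.7 TPM in tardbp 3TG, against 145, 91.2 and 124 TPM in 2TG. Their log2 fold changes were -0.95 (SE 0.40) and -1.43 (SE 0.40), and those of col2a1b and col11a2 were -0.97 and -1.20. The exception was col10a1a, at 148, 103 and 35.05 TPM in tardbp 3TG, against 45.9, 102 and 107 TPM in 2TG. Its groups overlapped, and its log2 fold change was 0.03, the highest of the class. The cartilage share of the collagen TPM was 36.8, 35.1 and 37.5 percent in 3TG, against 38.0, 39.1 and 38.0 percent in 2TG, lower in 3TG without overlap, and it does not depend on the scale of a library. The ratio of col2a1a to col1a1a, 0.613, 0.558 and 0.644 in 3TG, against 0.698, 0.709 and 0.647 in 2TG, was lower without overlap. The margin was narrow, between 3TG replicate 3 and 2TG replicate 3, and col2a1a is also part of the cartilage share. Beside these, sox9a stood at 21.01, 27.3 and 18.01 TPM in tardbp 3TG, against 29.8, 57.8 and 47.0 TPM in 2TG and sox9b at 7.62, 7.36 and 3.85 TPM in tardbp 3TG, against 14.3, 17.4 and 12.6 TPM in 2TG, both lower without overlap, with adjusted p of 0.350 and 0.339 (limma). After rescaling, the groups of sox9a overlapped and those of sox9b did not, and without 3TG replicate 3 the log2 fold changes were -0.83 and -0.88.

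Type I genes were lower by about the same amount. Levels of col1a1a were 513, 439 and 363 TPM in tardbp 3TG, against 626, 883 and 1004 TPM in 2TG, and the log2 fold changes of col1a1a, col1a1b and col1a2 were -0.92, -0.92 and -0.97. For col1a1a the 3TG libraries all lay below the 2TG libraries, and after rescaling they overlapped. Of the basement membrane genes, col18a1a stood at 48.0, 31.2 and 29.2 TPM in tardbp 3TG, against 74.7, 77.6 and 82.6 TPM in 2TG and col4a5 at 72.7, 50.8 and 46.1 TPM in tardbp 3TG, against 106, 109 and 133 TPM in 2TG, without overlap also after rescaling. For col4a5 the rescaled margin was narrow, with 3TG replicate 3 at 106.0 and the lowest 2TG library at 107.3. The log2 fold changes of col18a1a and col4a5 were -1.13 (SE 0.39) and -1.04 (SE 0.39), and that of col4a6 was -0.91.

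The smallest p of the line among collagens was that of col28a2a, a type XXVIII gene, at 8.499, 7.37 and 10.1 TPM in tardbp 3TG, against 38.5, 24.5 and 26.5 TPM in 2TG. Its log2 fold change was -1.66 (SE 0.40), with an adjusted p of 0.329 by limma, and its groups stayed apart after rescaling. The margin was then narrow, with 3TG replicate 3 at 23.2 and the lowest 2TG library at 24.9. The fibril-associated col14a1b followed at 34.5, 35.04 and 31.9 TPM in tardbp 3TG, against 68.6, 106 and 97.0 TPM in 2TG, a log2 fold change of -1.37 (SE 0.39). The skin gene col17a1a had -0.46 (SE 0.45), close to the all-gene median, and col12a1a -0.53. Of the 28 ratios, col4a3:col4a4, col9a2:col9a3 and col5a2a:col5a1 were higher in 3TG without overlap and col8a2:col8a1b was lower. Among their genes, col4a3, col4a4 and col8a1b averaged 2.49 TPM or less in each group of the line. The ratio col9a2:col9a3 was 1.33, 1.44 and 1.35 in 3TG, against 1.32, 1.06 and 1.26 in 2TG.

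Replicate 3 of tardbp 3TG was the lowest of the 6 libraries for 41 of the 52 collagens. Without it, 43 collagens were negative, where 37.1 percent of all genes were positive. The collagen median was -0.52 (-0.35 when set against all genes). At an unadjusted p below 0.05, 21 collagens were lower and 1 higher, against 13.9 percent of all genes lower and 5.1 percent higher in that fit. The class medians relative to all genes were then -0.68 for cartilage, -0.58 for fibrillar, -0.19 for other and 0.07 for basement membrane genes, with an all-gene median of -0.16. Of the genes described above, col10a1a apart, the log2 fold changes without that library were -1.02 (SE 0.24) for col2a1a, -0.84 for col2a1b, -0.88 for col9a2, -1.42 for col9a1b and -1.11 for col11a2. They were -0.79, -0.78 and -0.86 for col1a1a, col1a1b and col1a2, and -0.995, -0.91 and -0.78 for col18a1a, col4a5 and col4a6. Those of col28a2a and col14a1b were -1.76 (SE 0.27) and -1.33 (SE 0.24), and those of col17a1a and col12a1a -0.21 and -0.36, all of them negative. The fold change of col10a1a without that library is not given. Its 3TG replicates 1 and 2 stood at 148 and 103 TPM, against 45.9, 102 and 107 TPM in tardbp 2TG, so it did not share the lower level of these genes.

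The highest values belonged to 2TG replicate 3 for 31 collagens, and without that library 3 collagens had an unadjusted p below 0.05, all lower, with a median of -0.18 relative to all genes. In that fit 6.12 percent of all genes were lower and 2.48 percent higher at that p. Without 2TG replicate 2, the 1 library of the table written with 6 decimals, 4 had it, all lower, against 4.69 percent of all genes lower and 1.9 percent higher, and that median was -0.22. The count without 2TG replicate 1 is not given for this line alone. For the sox9b change minus the tardbp change, 23 collagens were higher at that p with all libraries (limma). Without tardbp 2TG replicate 1, 2 or 3 the count was 36, 20 or 18, and the shares of all genes were not computed for these fits. One fit over all 24 libraries, which shares 1 estimate of the spread over the lines, called 19 of the 52 collagens (36.5 percent), all lower, against 17 percent of all genes. The same fit after median centring called none, with a smallest adjusted p of 0.220 among the collagens.

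Collagen-modifying enzymes showed the same sign in the tardbp line: 14 of 14 tested were negative, where 17 percent of all genes had positive fold changes. The enzymes had a median of -0.34 relative to all genes, and none passed the test. The 2 of smallest p, p3h1 and crtap, encode partners in a prolyl 3-hydroxylase complex and had log2 fold changes of -1.40 (SE 0.41) and -1.35 (SE 0.41). The summed level of the 15 enzymes found was 894, 585 and 472 TPM in 3TG, against 1362, 1242 and 1004 TPM in 2TG, without overlap. Rescaled without the 3 abundant genes it was 908, 593 and 1083 in 3TG, against 1381, 1259.5 and 1023 in 2TG, and the groups overlapped. Relative to all genes the laminins and nidogens had a median of -0.24 (17 of 18 negative), degradation genes -0.31 (10 of 11), the notochord list -0.20 (8 of 8) and fibroblast and tendon genes -0.15 (14 of 18). Chondrocyte genes without collagens stood at -0.11 (22 of 23), folding and export genes at -0.09 (9 of 10) and collagen receptors at -0.05 (12 of 12). Processing and cross-linking genes, osteoblast genes and skin keratinocyte genes lay above the all-gene median, at 0.11, 0.17 and 0.30. Without 3TG replicate 3 the enzymes stood at -0.44 relative to all genes (13 of 14 negative), with p3h1 and crtap at -1.43 and -1.27. In that fit 37.1 percent of all genes were positive. The degradation genes then stood at -0.51 (10 of 11), laminins and nidogens at -0.38 (17 of 18), the notochord list at -0.37 (7 of 8) and fibroblast and tendon genes at -0.26 (13 of 18). Receptors stood at -0.09 (8 of 12), chondrocyte genes at -0.01 (17 of 23) and folding and export genes at 0.01 (7 of 10). Processing, osteoblast and skin genes stood at 0.08, 0.31 and 0.31.

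In the smn1 line most collagens had positive fold changes, and 3TG replicate 1 was the highest library for most of them. The target smn1 stood at 13.03, 17.3 and 15.9 TPM in smn1 3TG, against 27.9, 24.6 and 26.4 TPM in 2TG, lower without overlap, with a log2 fold change of -0.74 (SE 0.19) and an adjusted p of 0.340 by limma. Of 53 collagens, 50 had positive fold changes, where 45.2 percent of all genes did, with a median of 0.32 against -0.05 for all genes. At an unadjusted p below 0.05, 6 were higher and none lower, against 5.87 percent of all genes higher and 6.44 percent lower. Groups did not overlap for 10 collagens, all higher, against 7.96 percent of all genes higher and 11.2 percent lower.

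The 3 most abundant fibrillar and the 3 most abundant cartilage collagens had log2 fold changes between -0.03 and 0.22. Levels of col1a1a were 1114, 732 and 372 TPM in smn1 3TG, against 752, 542 and 798 TPM in 2TG, with the 3TG libraries spread around the 2TG ones, and those of col2a1a were 834, 444 and 260.1 TPM in smn1 3TG, against 465, 293 and 451 TPM in 2TG. The log2 fold changes were -0.03 (SE 0.38) and 0.22 (SE 0.40), those of col1a1b and col1a2 0.07 and -0.01, and those of col9a2 and col2a1b 0.12 and 0.15. The smallest p was that of col24a1, a minor fibrillar collagen, at 33.9, 22.1 and 24.1 TPM in smn1 3TG, against 14.0, 12.5 and 16.001 TPM in 2TG. The type XXII gene col22a1 of the muscle and tendon junction stood at 11.8, 10.9 and 8.81 TPM in smn1 3TG, against 5.66, 4.68 and 7.96 TPM in 2TG, and the basement membrane gene col18a1b at 5.35, 5.64 and 4.05 TPM in smn1 3TG, against 2.39, 3.41 and 2.34 TPM in 2TG. In none of these 3 genes did the groups overlap, and their log2 fold changes were 0.85 (SE 0.22), 0.71 (SE 0.24) and 0.70 (SE 0.23). The type X gene col10a1a stood at 84.6, 153 and 96.6 TPM in smn1 3TG, against 43.6, 71.8 and 69.7 TPM in 2TG, a log2 fold change of 0.83 (SE 0.29). For col15a1b and col16a1 the log2 fold changes were 0.54 and 0.74. Those of col5a2b and col27a1b, with unadjusted p of 0.0714 and 0.136 by limma, were 0.54 and 0.53. The adjusted p of every collagen was 0.340 or more (limma).

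The most abundant basement membrane genes, col4a5, col18a1a and col4a6, had log2 fold changes of 0.24, 0.13 and 0.31, and the skin gene col17a1a with col14a1b and col12a1a had -0.23, 0.30 and 0.16. Class medians in the smn1 line were 0.51 for basement membrane, 0.42 for other, 0.22 for cartilage and 0.12 for fibrillar genes. The fibrillar share of the collagen TPM was 41.4, 41.3 and 39.7 percent in 3TG, against 44.6, 45.2 and 43.0 percent in 2TG, lower in 3TG without overlap, with 3TG replicate 3 lowest. The 1 ratio of 28 without overlap was col17a1a:col17a1b, at 6.40, 4.06 and 4.52 in 3TG, against 7.42, 7.18 and 7.18 in 2TG. The total collagen share of the listed TPM was 0.687, 0.437 and 0.265 percent in 3TG, against 0.401, 0.310 and 0.454 percent in 2TG, and the 3TG group thus held both the highest and the lowest value of the line.

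Replicate 1 of smn1 3TG was the highest of the 6 libraries for 40 of the 53 collagens, and 3TG replicate 3 was the lowest for 20. Without 3TG replicate 1, 31 collagens were positive and 22 negative, with a median of 0.16, against -0.08 for all genes. Without 2TG replicate 3 or without 3TG replicate 3 the median was 0.57, against -0.03 and -0.04 for all genes. Within the libraries written with 6 decimals, 1 of 3TG and 2 of 2TG, 53 of 53 collagens were higher in 3TG with a median of 1.03, against 52.8 percent of all genes. Within those written with 6 significant digits, 2 of 3TG and 1 of 2TG, 14 of 53 were, with a median of -0.35, against 39.8 percent of all genes. The direction of the collagens as a set therefore did not hold within both formats. The 14 positive in both included col24a1, col22a1, col18a1b and col10a1a. Their differences were 1.295, 1.055, 0.716 and 0.588 with 6 decimals and 0.504, 0.270, 0.793 and 0.796 with 6 significant digits. In the latter format 5 of 9 basement membrane, 6 of 25 other, 2 of 8 fibrillar and 1 of 11 cartilage genes were positive.

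Enzymes that modify collagen chains mostly had the other sign in the smn1 line. Of 14 tested, 12 had negative fold changes, where 45.2 percent of all genes had positive ones. The median of the 14 was -0.43, and none passed the test. The prolyl 4-hydroxylase gene p4ha1b and the folding enzyme gene ppib had the smallest p, with log2 fold changes of -1.84 (SE 0.59) and -0.58 (SE 0.28). Folding and export genes were negative for 6 of 10 and degradation genes for 8 of 11. The summed level of the degradation list was uneven, at 607, 269 and 241 TPM in 3TG, against 318, 336 and 784 TPM in 2TG. Its gelatinase gene mmp9 stood at 84.9, 2.96 and 6.61 TPM in smn1 3TG, against 9.45, 14.7 and 118 TPM in 2TG. Chondrocyte genes without collagens were positive for 19 of 23 (median 0.37), laminins and nidogens for 13 of 18 (0.34), fibroblast and tendon genes for 14 of 19 (0.24) and osteoblast genes for 8 of 12 (0.19). Processing and cross-linking genes were positive for 12 of 17, collagen receptors for 8 of 13, skin keratinocyte genes for 9 of 17 and notochord genes for 4 of 8. The summed level of the chondrocyte list was 1454, 1042 and 656 TPM in 3TG, against 960.3, 687 and 934 TPM in 2TG, highest in 3TG replicate 1 as the collagens were, and its part in them was not tested. Transcripts of sox9a averaged 53.9 ± 26.0 TPM in 3TG and 46.1 ± 4.72 TPM in 2TG, and those of sox9b 16.7 ± 8.40 TPM in 3TG and 10.97 ± 3.74 TPM in 2TG (SD, n = 3 each), with overlapping groups.

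In the lin28a line the collagens were close to their 2TG levels. The target lin28a stood at 2.69, 8.41 and 3.16 TPM in lin28a 3TG, against 0.310, 1.23 and 0.866 TPM in 2TG, higher without overlap, with a log2 fold change of 1.58 (SE 0.40) and an adjusted p of 0.980 by limma. Of 53 collagens, 20 had positive and 33 negative fold changes, with 43 percent of all genes positive, and the medians were -0.03 for collagens and -0.05 for all genes. No collagen reached an unadjusted p below 0.05, against 0.7 percent of all genes higher and 1.08 percent lower. The 1 collagen whose groups did not overlap was col15a1b, with a highest 3TG library at 13.37 TPM just below the lowest 2TG library at 13.40 TPM. Of all genes, 4.06 percent were lower and 2.5 percent higher without overlap.

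The smallest p belonged to col10a1a, at 179, 54.6 and 150.2 TPM in lin28a 3TG, against 171, 182 and 179 TPM in 2TG, where 3TG replicate 2 alone was far below the others. Its log2 fold change was -0.63 (SE 0.40), and -0.11 (SE 0.16) without that library. Levels of col2a1a were 463, 418 and 591 TPM in lin28a 3TG, against 524, 504 and 486 TPM in 2TG, a log2 fold change of -0.06 (SE 0.18), and those of col1a1a were 631, 829 and 966 TPM in lin28a 3TG, against 737, 885 and 670.2 TPM in 2TG, a log2 fold change of 0.07 (SE 0.20). For both genes the groups overlapped. The log2 fold changes of col1a1b, col1a2, col9a2 and col2a1b were 0.11, -0.03, -0.05 and 0.02, and those of the basement membrane genes col4a5, col4a6, col18a1a and col18a1b were -0.01, -0.02, 0.12 and -0.17. Among the others, col17a1a, col14a1b and col12a1a had -0.22, 0.21 and 0.14. Also among the 2 collagens of smallest p in their classes, col24a1, col27a1b, col8a1a and col6a1 had log2 fold changes of 0.37, 0.37, -0.40 and -0.24. The fibrillar gene col5a3b, another of these, averaged 52.5 ± 13.3 TPM in 3TG and 43.9 ± 6.98 TPM in 2TG (SD, n = 3 each). The ratio col5a3b:col5a3a, 42.6, 47.5 and 55.7 in 3TG, against 42.1, 41.7 and 24.9 in 2TG, was the 1 of 28 without overlap. Its lower gene col5a3a averaged only 1.07 TPM in 3TG and 1.25 TPM in 2TG. In this line sox9a stood at 37.3, 58.2 and 38.0 TPM in lin28a 3TG, against 36.6, 28.5 and 16.9 TPM in 2TG, higher without overlap with an adjusted p of 0.980 (limma), sox9b averaged 14.2 ± 6.15 TPM in 3TG and 9.79 ± 1.61 TPM in 2TG (SD, n = 3 each), and the cartilage median was -0.05.

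None of the 11 lists had a member that passed the test in the lin28a or the sox9b line. In the lin28a line the degradation genes were positive for 9 of 11 with a median of 0.25, led by mmp9 and ctsk at 2.18 (SE 1.19) and 0.41 (SE 0.23), which encode a gelatinase and a collagen-degrading cathepsin. Replicate 2 of lin28a 3TG stood apart here: the summed level of the list was 240.2, 1353 and 377 TPM in 3TG, against 235, 288 and 348 TPM in 2TG, with mmp9 at 4.46, 255 and 11.1 TPM in lin28a 3TG, against 5.94, 3.41 and 4.91 TPM in 2TG and timp2b, a metalloproteinase inhibitor, at 6.89, 353 and 23.8 TPM in lin28a 3TG, against 6.86, 10.4 and 10.5 TPM in 2TG. Without that library the median of the list was 0.01 (7 of 11 positive), and mmp9 and ctsk had log2 fold changes of 0.53 and 0.27. Notochord genes were positive for 7 of 9, laminins and nidogens for 14 of 18, chain-modifying enzymes for 10 of 14, processing genes for 11 of 17, receptors for 7 of 12, chondrocyte genes for 13 of 24, fibroblast and tendon genes for 10 of 19, skin genes for 8 of 18, osteoblast genes for 5 of 11 and folding and export genes for 3 of 10. Without 3TG replicate 2 the counts were 5 of 9 for notochord genes, 8 of 18 for laminins and nidogens, 7 of 14 for enzymes, 8 of 17 for processing genes, 4 of 12 for receptors, 6 of 19 for fibroblast and tendon genes and 11 of 18 for skin genes. They were 16 of 24 for chondrocyte genes, 5 of 11 for osteoblast genes and 4 of 10 for folding and export genes. Of all genes in the lin28a line, 43 percent were positive with that library and 43.8 percent without it. In the sox9b line the receptors were positive for 12 of 13 with a median of 0.18, laminins and nidogens for 16 of 18 (0.12) and folding and export genes for 8 of 10 (0.15), where 66.9 percent of all genes were. Fibroblast and tendon genes were positive for 14 of 19, processing genes for 10 of 17, chain-modifying enzymes for 9 of 14, osteoblast genes for 7 of 11, notochord genes for 5 of 9, skin genes for 8 of 17 and degradation genes for 5 of 11.

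Whether the sox9b line differed from the other lines was tested on the difference between the changes, in 1 limma fit over the 24 libraries. No collagen passed for the sox9b line minus any other, and the fit called 0 percent of all 21099 genes in each of the 3 differences. At an unadjusted p below 0.05, 23 collagens had a higher change in the sox9b than in the tardbp line, against 20.7 percent of all genes, and none a lower one, against 0.171 percent. After median centring that count was 3 higher and 2 lower, against 2.55 and 3.87 percent of all genes. Without tardbp 3TG replicate 3 and uncentred it was 23 higher and 2 lower, and the share of all genes was not computed for that fit. With all 24 libraries and no centring, the smallest p was that of col18a1a. Its change was 1.38 higher on the log2 scale (SE 0.39), with an adjusted p of 0.165 by limma. Against the smn1 line no collagen reached an unadjusted p below 0.05, where 2.84 percent of all genes were higher and 0.526 percent lower. After median centring 2 did, col24a1 and col15a1b, both with a lower change in the sox9b line, against 2.21 percent of all genes lower and 2.61 percent higher. Against the lin28a line no collagen reached that p, where 0.664 percent were higher and 0.327 percent lower, nor after median centring, where 0.664 percent were higher and 0.882 percent lower. No cartilage gene of the sox9b line thus passed a test of its difference from another line. Over all 4 lines, 4 of 54 collagens had groups that did not overlap in opposite directions in 2 lines, against 3.28 percent of all 19795 genes tested in 2 or more lines.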

How the data were processed

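Each line has its own deposited table of TPM by gene, per the file headers. The submitters' processing notes name Trimmomatic 0.39, Salmon 1.10.1 and STAR 2.7.10b without their roles, and as builds danRer11 and GRCz11. Since no counts were used, depth is unknown. Tables were made per line, so tests stay within a table and levels over all libraries are descriptive. The smn1 table has 13 unnamed columns, which were not used. Genes were kept apart by Ensembl identifier.

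Each line was fitted alone with limma 3.58.1 in R 4.3.3 on log2(TPM + 1), unscaled, with a trended variance prior, for genes with TPM of 1 or more in 3 or more of 6 libraries. Differences between lines used 1 fit of 24 libraries. No p was computed for shares and ratios. An exact permutation test of 3 against 3 cannot go below 0.1. The members, classes and 11 gene lists were chosen with earlier results of these data known. Named in each line are the targets, sox9a and sox9b, the 3 most abundant and 2 smallest-p members of each class, every cartilage member in the sox9b line, and the 2 smallest-p genes of each list. These last are printed for some lists only, and those lists and further collagens were chosen after their values were seen. The lists cover chain-modifying enzymes, folding and export, processing and cross-linking, degradation, receptors, laminins and nidogens, and markers of chondrocytes, osteoblasts, notochord, fibroblasts with tendon, and skin keratinocytes. The fits were tested on simulated data. Alternatives were other pseudocounts, filters and scalings, a replicate block, an untrended prior, 1 fit of 24 libraries, the number format as a covariate and each library left out.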

Additional observations from a re-analysis of the deposited data

Results flagged for a closer look

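In 4 collagen genes the 3TG libraries lay wholly above the 2TG libraries in 1 line and wholly below them in another, 4 of the 54 tested in 2 or more lines, where 3.28 percent of all 19795 such genes did so. With the tardbp line rescaled without its 3 abundant genes, col16a1 overlapped in that line (3TG replicate 3 at 30.4, against 29.2 to 34.2 in 2TG) and 3 collagens and 2.6 percent of all genes had the pattern. Without tardbp 3TG replicate 3 the same 4 collagens and 3.93 percent of all genes had it. For col16a1 the change in the smn1 line exceeded that in the tardbp line by 1.65 on the log2 scale, with an adjusted p of 0.413 by limma over all genes. For col22a1 the same difference was 1.53, also with an adjusted p of 0.413 (limma). For col15a1b the smn1 change exceeded the lin28a change by 0.68, with an adjusted p of 0.663 (limma). In the lin28a line its highest 3TG library was at 13.37 TPM and its lowest 2TG library at 13.40 TPM. For col18a1a the sox9b change exceeded the tardbp change by 1.38, with an adjusted p of 0.165 (limma). In the sox9b line its lowest 3TG library was at 76.6 TPM and its highest 2TG library at 75.9 TPM. The differences that involve the tardbp line were fitted with tardbp 3TG replicate 3 included.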

How the results depend on the processing

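No collagen was called in any line under any alternative run, except in the tardbp line, where 1 fit over all 24 libraries called 19. For all genes in the tardbp line, where 2 were called, the count was 0 under each of these: pseudocount 0.1, no low-value filter, median centring, and rescaling without mitochondrial and the 20 most abundant genes or without the 3 abundant genes. It was also 0 in 1 fit over 24 libraries after median centring. It was 3293 in that fit uncentred, 53 after centring without 3TG replicate 3, and 0 to 176 with each library left out. For all genes in the smn1 line the count was 5 with an untrended prior and 0 to 2 with each library left out. Same-numbered libraries deviated together in no line by the rule used, a correlation over 0.1 in every pair. In the lin28a line the correlations were 0.376, 0.0539 and 0.242, all positive, and in the sox9b line 0.258, -0.338 and -0.139. The cut at 0.1 was a choice and cannot exclude pairing, so whether same-numbered libraries share a clutch stays unknown. With a replicate block, 28 genes were called in the tardbp line and 0 in the others, and no collagen in any. Counting types II, XI and XXVII as fibril-forming gave cartilage genes a mean share of the listed TPM of 0.0671 percent, against 0.161 percent by type number, and fibrillar genes 0.279 percent, against 0.185 percent. The fold changes of the named collagens, 78 in all, were recomputed 1230 times over the alternatives: 65 values had the other sign, 53 moved by 1 SD or more, and 13 were called, all in the tardbp line. At a TPM minimum of 5, 45 of the 55 genes were kept. The centred 24-library fit, the fit without tardbp 3TG replicate 3 after centring, the rescaled overlaps, the list and target values without 1 library, and the differences between lines without sox9b were chosen after seeing the data. The causes of these changes were not tested. Without counts, precision at low TPM is unknown.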
